A study of Mus musculus with 4 samples.

Results

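The genes described here are *Bmal1*, *Clock*, *Npas2*, *Nr1d1*, *Nr1d2* and *Rora*, which form the activating arm and the stabilising loop of the circadian clock. They are 6 of the 35739 genes in a liver RNA-seq experiment on *Usp21* knockout (KO) mice. They were found by their symbols and had been chosen as a group with the difference between KO and wild-type (WT) livers already known, so that difference is described for them without a test. Of the 6 genes, 5 passed the filter on low values (an average TPM of 1 or more across all 4 libraries) and *Npas2* did not. TPM is the abundance of a transcript relative to all transcripts of a library, corrected for length.

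Liver RNA of 4 mice was sequenced, each in 1 library: WT replicates 2 and 3, and replicates 1 and 3 of the *Usp21* KO. The mice were littermates aged 10 to 11 weeks, kept on a normal diet under a light/dark cycle. The KO mice lacked *Usp21* exons 3 and 4 in every tissue after Cre/loxP excision, and the KO allele came from mixed-background mice while the WT allele came from B6 mice. The genotype and the strain of the DNA around *Usp21* therefore cannot be told apart. The hour at which the livers were taken is not given in the sources used here. It bears on any gene below whose mRNA changes over the day. The comparison asks which liver genes differ when the deubiquitylase *Usp21* is absent.

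In the liver, as in other tissues, the proteins BMAL1 and CLOCK pair and switch on genes that carry an E-box, among them the *Per* and *Cry* genes, whose products then block the pair. NPAS2 is a close relative of CLOCK that can take its place as the partner of BMAL1. A second loop joins to this one. The nuclear receptors REV-ERBα (*Nr1d1*) and REV-ERBβ (*Nr1d2*) repress *Bmal1*, *Clock* and *Npas2*, and RORα (*Rora*) activates *Bmal1* through the same DNA element. *Bmal1* mRNA and *Nr1d1* mRNA normally peak at nearly opposite times of day.

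The element that the REV-ERB and ROR receptors read holds the letters AGGTCA after an A- and T-rich stretch, and it is shown here because it ties *Bmal1* to the other loop. The RefSeq promoters (build GRCm38.p6, from 250 bases before to 50 bases after each start site) gave 9 windows for the 6 genes. Windows of 30 bases around the matches are printed below 5′ to 3′ on the strand of the gene, with the searched letters in capitals. The first pair comes from *Bmal1* on chromosome 7, forward strand, at chr7:113207485-113207514 and chr7:113207527-113207556, and both lie just after a RefSeq start site. The capitals there mark AAAGTAGGT, the stretch that both sites share, and they continue into AGGTTA at the first site and AGGTCA at the second.
Bmal1 first site: ggagcggattggtcggAAAGTAGGTtagtg
Bmal1 second site: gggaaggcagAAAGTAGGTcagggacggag
The other pair comes from *Clock* (chr5:76303604-76303633, reverse strand) and *Nr1d2* (chr14:18239166-18239195, reverse strand), both before a RefSeq start site. For *Clock* this is the start at 76303502, of 1 of its 3 RefSeq promoters. That *Clock* window lies inside the gene by the coordinates given below. The capitals mark AGGTCA, or its reverse complement in *Clock*.
Clock: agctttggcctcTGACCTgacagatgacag
Nr1d2: gattggaagaagAGGTCAggaccgctcgtt

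AGGTCA, searched on both strands, was found in 3 of the 9 windows and in 16.3% of all 32851 promoters, so that a match to it alone is common. The longer form TAGGTCA, which contains AGGTCA, was found in 1 window (*Bmal1*) and in 2.61% of all promoters. AAAGTAGGT was searched after the *Bmal1* promoters had been read, and 0.183% of all promoters held it. The E-box CACGTG (7.15% of all promoters) and the D-box forms TTATGTAA (0.938%) and TTACGTAA (0.119%) were in 0 of the 9 windows. These are matches of letters in a short window around the start site and do not show binding.

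The libraries summed to between 997566 and 998290 TPM, and between 12876 and 13620 genes were above 0 in each library. *Usp21*, the targeted gene, was at 4.07 and 6.29 TPM in the WT livers and at 1.64 and 2.93 TPM in the KO livers, a log2 difference of -0.92 ± 0.33 (SE, adjusted p = 0.464, limma with Benjamini-Hochberg adjustment). Its TPM sums all transcripts of the gene and does not separate out the excised exons. The hepatocyte markers were high, as the tissue label implies, and their 5 genes summed to between 50155 and 71239 TPM. The 4 stellate cell markers summed to 51.9 and 40.5 TPM in WT and to 76.2 and 58.7 TPM in KO. Of the 3 tested ones, 2 were higher in KO without overlap, as were 34.4% of all tested genes. The 3 cholangiocyte markers had low sums, of 1.06 and 2.83 TPM for the WT livers and 4.09 and 3.82 TPM for the KO livers. Those of the 3 lymphocyte markers were 2.29 and 1.85 TPM for WT, above the 1.55 and 0.897 TPM for KO. The 3 pancreatic acinar markers summed to 42.2 and 30.7 TPM in WT and to 28.7 and 30.6 TPM in KO, lower in KO without overlap, and all of it was *Cela1*, since *Prss1* and *Ctrb1* were at 0 in all libraries. The sums of Kupffer cell, endothelial, erythroid and adipocyte markers overlapped between the genotypes. The part of these shifts in the results below was not tested, and in whole liver fewer cells of a type and less RNA per cell cannot be told apart.

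*Bmal1* (ENSMUSG00000055116, chromosome 7, 113207465 to 113314126, forward strand, build GRCm38) was the gene of the 6 with the widest gap between genotypes. It stood at 0.241 and 0.243 TPM in the WT livers and at 5.89 and 4.05 TPM in the KO livers. The WT livers were almost equal and both KO livers lay far above them, the lower KO value being 16.7 times the higher WT value. The mean was 0.242 ± 0.00115 TPM (SD, n = 2) in WT and 4.97 ± 1.30 TPM (SD, n = 2) in KO, a ratio of 20.5. Both WT values were under 1 TPM and TPM holds no depth, so the size of these folds and the small WT SD are uncertain. On the log2(TPM + 1) scale used for all differences below, which shrinks the change of low genes, KO exceeded WT by 2.25 ± 0.28 (SE). That placed *Bmal1* at rank 25 from the top among the 9581 tested genes. The gene was chosen with this difference known, so nothing is read from the rank. In WT, under 1% of the tested genes lay below *Bmal1* in level (0.668% and 0.918%), whereas in KO 41.0% and 34.3% did. *Bmal1* passed the filter only through its KO values, so the filter itself set its place near the bottom of the tested genes in WT. Among all genes above 0 in a library, 12.0% and 10.4% lay below it in WT, and 58.5% and 51.5% in KO.

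*Clock* (ENSMUSG00000029238, chromosome 5, 76209868 to 76304792, reverse strand) encodes the partner of BMAL1 and a histone acetyltransferase. It stood at 1.23 and 1.02 TPM in WT and at 5.07 and 3.24 TPM in KO. As with *Bmal1*, the WT livers lay close together, KO replicate 1 was the highest, and the lower KO value was 2.64 times the higher WT value. The means were 1.12 ± 0.151 TPM (SD, n = 2) in WT and 4.15 ± 1.29 TPM (SD, n = 2) in KO, a ratio of 3.70, and the log2 difference was 1.26 ± 0.29 (SE).

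*Npas2* (ENSMUSG00000026077, chromosome 1, 39193731 to 39363236, forward strand) was listed at 0 in both WT livers and at 0.906 TPM and 0.112 TPM in KO replicates 1 and 3. All of these values were under 1 TPM and the KO livers lay far apart, and with WT at 0 no fold is given. A value of 0 in a table of estimates need not mean that no transcript was present. KO replicate 1 was the highest library for all 3 activators, and also for *Rora* below. The summed level of *Bmal1*, *Clock* and *Npas2* was 1.47 and 1.26 TPM in the WT livers, far below the 11.9 and 7.40 TPM of the KO livers.

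**Figure D1:**
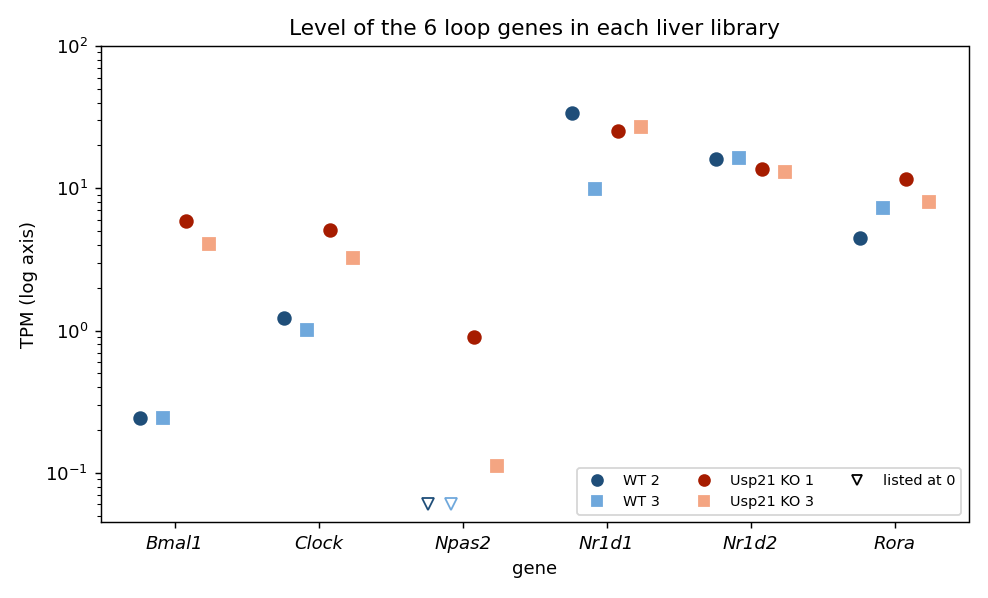
TPM of the 6 genes (logarithmic vertical axis) in each of the 4 liver libraries, WT in blue and *Usp21* KO in red, with circles and squares for the 2 mice of a genotype and open triangles for a value listed at 0. The KO points lie above the WT points for *Bmal1*, *Clock*, *Npas2* and *Rora* and below them for *Nr1d2*, while the WT points of *Nr1d1*, at 33.9 and 9.92 TPM, lie on either side of the KO points.

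*Nr1d1* (ENSMUSG00000020889, chromosome 11, 98767932 to 98775333, reverse strand), the REV-ERB with the stronger rhythm, did not separate the genotypes. It was at 33.9 and 9.92 TPM in WT and at 25.1 and 26.9 TPM in KO. WT replicate 2 was the highest library and WT replicate 3 the lowest, and both KO livers fell between them. The WT values differed 3.42-fold, and 1.41% of the tested genes differed by as much between the WT libraries, whereas the KO values differed 1.07-fold. The means were 21.9 ± 17.0 TPM (SD, n = 2) in WT and 26.0 ± 1.29 TPM (SD, n = 2) in KO, and the log2 difference was 0.47 ± 0.53 (SE). The sign of that difference rested on 1 WT library: leaving out WT replicate 3 gave -0.37, and leaving out WT replicate 2 gave 1.31.

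*Nr1d2* (ENSMUSG00000021775, chromosome 14, 18204054 to 18239127, reverse strand), its paralog with an overlapping role, was even across the livers. It was at 16.0 and 16.2 TPM in WT and at 13.7 and 13.1 TPM in KO. Both KO livers were below both WT livers by a small margin. The means were 16.1 ± 0.161 TPM (SD, n = 2) in WT and 13.4 ± 0.440 TPM (SD, n = 2) in KO, a ratio of 0.832, with a log2 difference of -0.25 ± 0.18 (SE). A processed pseudogene on another chromosome, AC170187.1, shares 514 of the 5403 stretches of 31 bases in *Nr1d2* transcripts, so reads from that part (9.51% of all stretches, every shared one counted) are uncertain between both loci. In WT replicate 3, the liver in which *Nr1d1* was lowest, *Nr1d2* was at the same level as in WT replicate 2.

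*Rora* (ENSMUSG00000032238, chromosome 9, 68653786 to 69388246, forward strand), the activator that competes with the REV-ERBs, was at 4.50 and 7.21 TPM in WT and at 11.7 and 7.99 TPM in KO. Both KO livers were above both WT livers, but the lower KO value was only 1.11 times the higher WT value. The means were 5.86 ± 1.92 TPM (SD, n = 2) in WT and 9.83 ± 2.60 TPM (SD, n = 2) in KO, a ratio of 1.68, and the log2 difference was 0.67 ± 0.31 (SE). Each of 2 libraries moved that difference by more than 1.5 times, since leaving out WT replicate 2 gave 0.38 and leaving out KO replicate 1 gave 0.42.

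Of the 5 tested genes, 2 (*Bmal1* and *Clock*) were higher in KO by at least 2-fold on this scale, and 2.59% of all tested genes were. None of the 5 was lower by at least 2-fold, against 1.1% of all tested genes. The genotypes did not overlap, with KO higher, for 3 of the 5 genes (*Bmal1*, *Clock* and *Rora*), and 34.4% of all tested genes did the same, so that lack of overlap alone is common here. They did not overlap with KO lower for 1 gene (*Nr1d2*), against 10.9% of all tested genes. Because the genes had been chosen with this difference known, nothing is read from these counts. Without WT replicate 2, *Nr1d1* also passed the 2-fold mark, which made the count 3.

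Tested genes as a whole were shifted toward KO, with a median log2 difference of 0.15. Relative to this median, *Bmal1* stood at 2.10, *Clock* at 1.11, *Rora* at 0.52, *Nr1d1* at 0.32 and *Nr1d2* at -0.40. When each library was scaled to an equal upper quartile, the median fell to 0.04 and the same values were 2.14, 1.13, 0.51, 0.30 and -0.41. The position of the 5 genes against all others was thus nearly the same under both scalings, whereas the share of KO-higher genes among those changed at least 2-fold went from 70.3% to 55.8%.

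**Figure D2:**
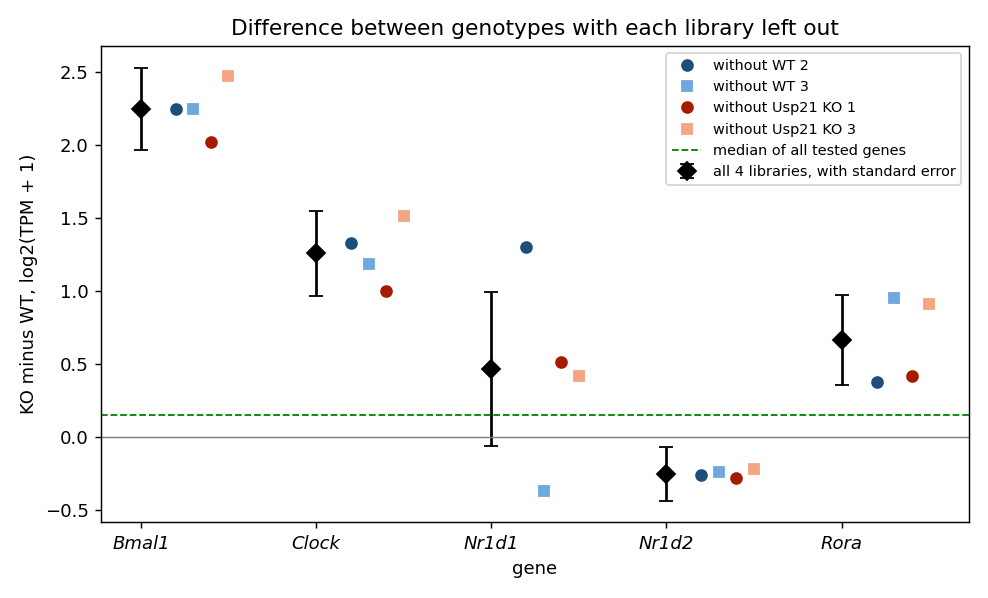
Difference of KO minus WT in log2(TPM + 1) for the 5 tested genes, as a diamond with its standard error for all 4 libraries and as coloured points with each library left out. *Bmal1* stayed between 2.02 and 2.47 and *Clock* between 1.00 and 1.52, while *Nr1d1* ranged from -0.37 to 1.31. The dashed line is the median of all tested genes.

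Plain TPM ratios of 2 genes within a library do not depend on the scaling between libraries. Log2 ratios of (TPM + 1) do so in part, most of all for low genes, because of the added 1. For 1 TPM of *Bmal1*, the WT livers held 66.3 and 66.7 TPM of the repressor *Nr1d2*, and the KO livers held 2.32 and 3.23 TPM. As a log2 ratio of (TPM + 1), *Bmal1* to *Nr1d2* was -3.77 and -3.79 in WT and -1.09 and -1.48 in KO. Repressor transcripts still exceeded *Bmal1* in all 4 livers, by far less in KO. The WT ratios rest on *Bmal1* values under 1 TPM, so their size is uncertain.

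The order of both partners also changed. The TPM ratio of *Bmal1* to *Clock* was 0.196 and 0.239 in WT and 1.16 and 1.25 in KO, so that *Clock* was the higher in WT and *Bmal1* in KO. The TPM ratio of *Rora* to *Nr1d2*, activator to repressor of the same element, was 0.282 and 0.445 in WT and 0.852 and 0.611 in KO. These 2 ratios, and the sums of genes given here, were chosen after the values had been seen. The log2 ratio of *Nr1d1* to *Nr1d2* was 1.04 and -0.66 in WT and 0.83 and 0.99 in KO, with WT replicate 3 alone below 0. The summed repressors *Nr1d1* and *Nr1d2* were at 49.9 and 26.1 TPM in WT and at 38.8 and 40.0 TPM in KO, which overlapped. In every library the REV-ERBs were the highest of the 6 genes, *Rora* came next, and *Npas2* was the lowest, while *Bmal1* and *Clock* changed places between genotypes.

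**Figure D3:**
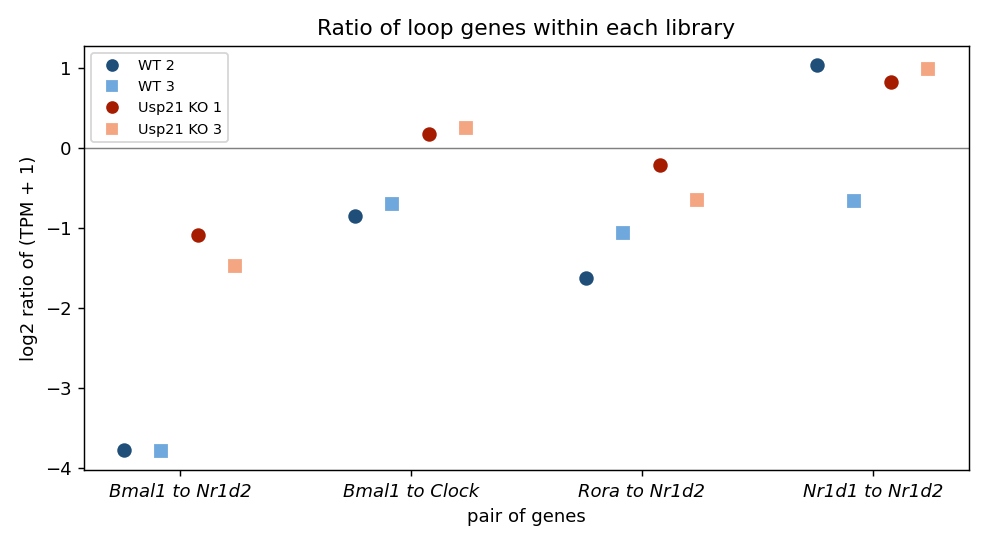
Log2 ratio of (TPM + 1) for 4 pairs of genes within each library, WT in blue and *Usp21* KO in red. The pair *Bmal1* to *Nr1d2* went from -3.77 and -3.79 in WT to -1.09 and -1.48 in KO, and *Nr1d1* to *Nr1d2* was set apart only by WT replicate 3.

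The other genes of the pathway were described in 5 lists with 56 genes, of which 47 were tested. All lists were chosen with earlier results of these data known, so their counts and p-values are descriptions only. With limma and Benjamini-Hochberg adjustment over all tested genes, 1 pathway gene fell (adjusted p under 0.05) and 0 rose, while 0.0313% of all tested genes fell and 0.0522% rose. That gene was *Dbp*, a PAR bZIP transcription factor that CLOCK and BMAL1 switch on through E-boxes. *Dbp* was at 56.8 and 41.3 TPM in WT and at 4.73 and 4.97 TPM in KO, with a log2 difference of -3.08 ± 0.23 (SE, adjusted p = 0.0193). The call was lost in every fit that left out 1 library, either WT or either KO (adjusted p from 0.170 to 0.355), without the filter (0.0577) and without moderation of the variance (0.438). In the CPM table *Dbp* went the other way, by 1.52, on 1 to 7 reads a library. That table is at 0 in every library for 428 of its 682 genes with at least 100 TPM in all libraries. Its value for *Dbp* is therefore not read against the TPM value.

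All 10 tested E-box output genes had lower means in KO, 9 of them without overlap of the genotypes (10.9% of all tested genes). Without WT replicate 3, 9 had lower means and 1 a higher one. The median log2 difference was -0.96 against 0.15 over all tested genes. Of the 10 genes, 5 were lower by at least 2-fold, and apart from *Dbp* they are named after their values had been seen. *Ciart*, a repressor of CLOCK and BMAL1, was at 5.70 and 5.61 TPM in WT and at 0.301 and 0.194 TPM in KO (log2 difference -2.42, adjusted p = 0.0890). *Usp2*, a deubiquitylase with strong liver rhythm, was at 11.5 and 12.7 TPM in WT and at 1.81 and 2.37 TPM in KO (-2.09, adjusted p = 0.101). *Wee1*, a cell cycle kinase, had a log2 difference of -1.24 and *Tef*, another PAR bZIP factor, one of -1.06. The least changed was *Nampt*, the rate-limiting enzyme of NAD salvage, at -0.25. The tested E-box genes of this list had lower means in the genotype in which transcripts of their activators *Bmal1* and *Clock* had higher ones. Because the list was chosen with earlier results known, nothing is read from this or from the counts above. The list leaves out the loop genes themselves, among them *Nr1d1* (log2 difference 0.47) and *Nr1d2* (-0.25). It also leaves out *Cry1* (0.38, genotypes overlapping), a *Cry* gene that was placed with the REV-ERB/ROR element genes. The shared direction is therefore a statement about the listed genes only.

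The 7 tested genes with a described REV-ERB/ROR element, like *Bmal1*, were mixed. Of these, 5 had higher and 2 had lower means in KO, 3 were higher by at least 2-fold, and the median log2 difference was 0.77. *Elovl3*, a fatty acid elongase, was at 87.5 and 10.8 TPM in WT and at 252.8 and 208.3 TPM in KO (2.83 ± 0.88, SE, adjusted p = 0.464). Its WT livers differed in the same order as for *Nr1d1*, with WT replicate 3 the lowest. *G6pc1*, the glucose-6-phosphatase catalytic subunit, had a log2 difference of 1.85 (adjusted p = 0.464) and *Nfil3*, the repressor that opposes *Dbp*, one of 1.69 (adjusted p = 0.436).

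The corepressors and coactivators of the loop, such as the REV-ERB corepressors *Ncor1* and *Hdac3*, had small differences in 1 direction. All 14 tested genes had higher means in KO, 12 without overlap, although *Hdac3* turned to -0.03 and 7 were without overlap under upper quartile scaling. Leaving out WT replicate 2 gave 12 higher and 2 lower, and leaving out KO replicate 1 gave the same counts. Over all tested genes, 34.4% were higher in KO without overlap and the median was 0.15. The median log2 difference of the list was 0.52, or 0.40 with that scaling. The range ran from 0.09 for *Hdac3*, the histone deacetylase that REV-ERBs recruit, to 0.80 for *Ppargc1a*, a coactivator of the RORs. *Ppargc1a* was among the genes the study picked from these libraries, so its place is not independent. None of the 14 reached 2-fold and none passed the test.

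The kinases and ubiquitin ligases that act on clock proteins had a median of 0.29, against 0.15 over all tested genes. Of 15 tested genes, 13 were higher in KO (12 under upper quartile scaling, which turned *Gsk3a*, and 11 to 14 with each library left out). Against 34.4% of all tested genes, 7 of the 15 were higher without overlap. They ran from -0.31 for *Siah2*, a ligase of REV-ERBα, to 1.17 for *Huwe1*, another of its ligases (2.89 and 2.51 TPM in WT, 6.41 and 8.26 TPM in KO, adjusted p = 0.432). Of the relatives of the 6 genes, *Bmal2* was under 0.1 TPM in all libraries, *Rorb* was listed at 0 in all 4 and the thyroid hormone receptor *Thra* had a difference of 0.27.

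**Figure D4:**
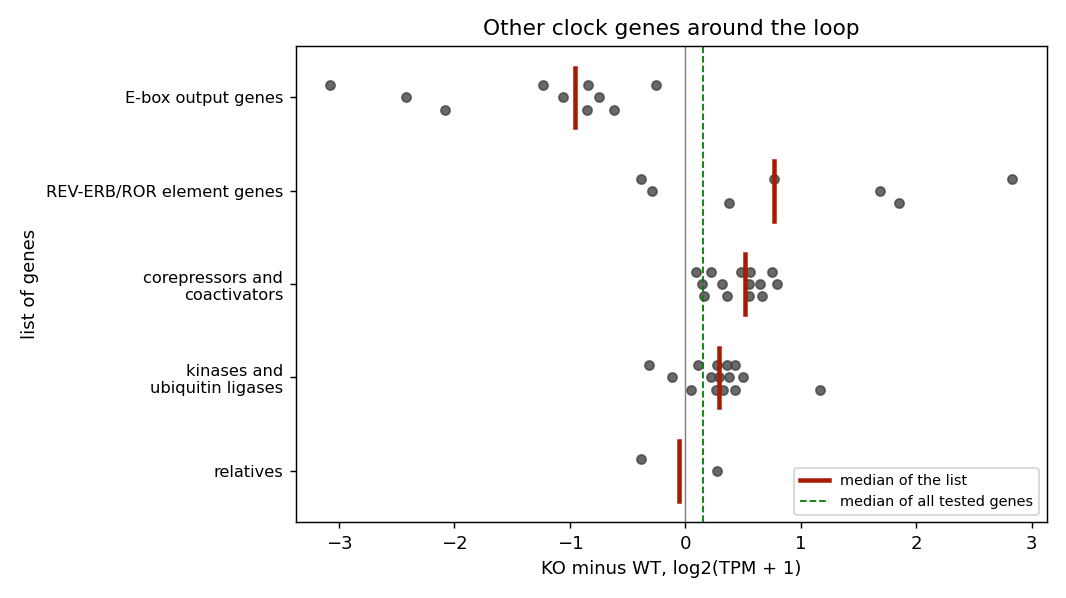
Difference of KO minus WT in log2(TPM + 1) for each tested gene of the 5 pathway lists, 1 point per gene, with the list median as a red bar and the median of all tested genes as a dashed line. The medians were -0.96 for the E-box output genes, 0.77 for the REV-ERB/ROR element genes, 0.52 for the corepressors and coactivators and 0.29 for the kinases and ubiquitin ligases.

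*Thra* lies on the opposite strand to *Nr1d1*, and their 3′ ends share 263 bp of exon sequence. The deposited CPM table (read counts scaled to library size by TMM) gave a different picture from the TPM table there. *Nr1d1* had 5, 6, 7 and 9 reads in WT 2, WT 3, KO 1 and KO 3, or 38.4, 55.0, 46.8 and 83.0 CPM, while *Thra* had 103, 29, 91 and 56 reads, or 791, 266, 608 and 517 CPM. *Thra* in TPM was at 4.88, 3.20, 4.75 and 5.27. The highest and the lowest library of *Thra* in CPM were those of *Nr1d1* in TPM, WT replicates 2 and 3. The other 5 genes had 0 reads in all 4 libraries of the CPM table, where 0 reads leave room for as many as 3, worth at most 27.7 CPM in any library, counting error alone. The antisense genes *Gm45355* at *Bmal1* (33 bp of shared exon sequence) and *Gm15511* at *Rora* (82 bp) had 1, 0, 1 and 1 reads and 1, 1, 4 and 2 reads. Overlapping genes inside *Clock* and *Npas2* shared no exon sequence with them. The strand setting of the counting is not given in the sources used here, so the CPM values were not used for these genes.

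**Figure D5:**
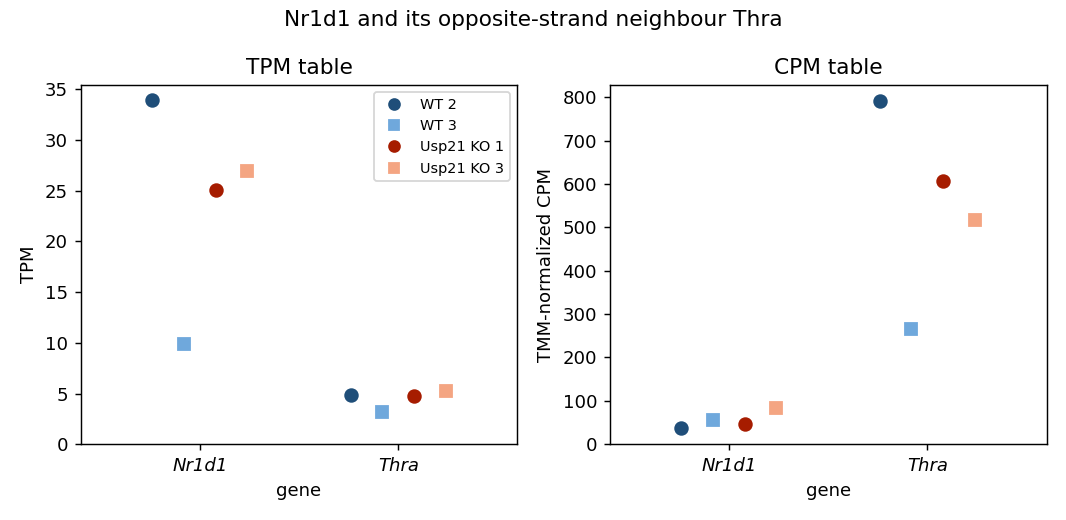
*Nr1d1* and *Thra* in each library in the TPM table (left) and in the TMM-normalized CPM table (right), WT in blue and *Usp21* KO in red, with vertical axes from 0. The spread between WT replicates 2 and 3 was seen for *Nr1d1* in TPM (33.9 and 9.92) and for *Thra* in CPM (791 and 266).

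Genes whose profile over the 4 libraries was nearest to that of *Bmal1* or *Nr1d1* were sought among 9576 tested genes, by the root-mean-square distance between log2(TPM + 1) profiles, each centred on its mean. Nearest to *Bmal1* were *Ugt2b38* (distance 0.227), *Snhg4* (0.263), *Zc3h7a* (0.286), *Chd8* (0.306) and *Tra2a* (0.319). *Ugt2b38*, a glucuronosyltransferase, was at 3.96 and 6.36 TPM in WT and at 32.5 and 28.0 TPM in KO. *Snhg4*, annotated as protein-coding under the identifier used here, was listed at 0 in both WT livers and at 2.61 and 2.96 TPM in KO. *Tra2a*, a splicing factor, was at 2.73 and 3.38 TPM in WT and at 13.7 and 9.63 TPM in KO. None of them is a clock gene of the lists.

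Nearest to *Nr1d1* were *Gm4952* (distance 0.055), *Gbf1* (0.080), *Tymp* (0.131), *Plxnd1* (0.147) and *Trmt9b* (0.168). *Gm4952* was at 85.3 and 26.7 TPM in WT and at 59.6 and 64.1 TPM in KO, and *Gbf1*, an exchange factor for ARF proteins, was at 16.6 and 4.40 TPM in the WT livers and at 13.9 and 13.2 TPM in the KO livers. In all 5 of these genes, as in *Nr1d1*, WT replicate 3 was the lowest library and WT replicate 2 the highest. With 4 libraries such likeness is a description only.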

How the data were processed

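Liver RNA-seq libraries of 2 WT and 2 *Usp21* KO mice were grouped by the genotype in their labels. The authors deposited salmon TPM per gene (35739 genes, mouse build mm10), the same values as log2(TPM + 1), and HTSeq counts turned into TMM-normalized CPM (55335 genes) with edgeR, also on a log2 scale. The annotation release, the tool versions and the strand setting are not given in the sources used here. The CPM values were whole multiples of 1 read within 0.02 reads (100% of values), which gave 148164 and 110427 reads for the WT and 145306 and 102898 reads for the KO libraries. The deposited CPM signal is 0 in every library for 428 of the 682 genes found there that reached 100 TPM in all libraries, so TPM, which holds no depth, was used for all main values. The number of unused sample columns was 0.

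The 9581 genes averaging 1 TPM or more were fitted on log2(TPM + 1) with limma 3.58.1 in R 4.3.3 (eBayes with trend, two-sided, Benjamini-Hochberg adjustment, prior degrees of freedom 3.62). The p-values measure the spread between 2 mice a genotype and lean on variances shared between genes, and an exact permutation test of 1 gene could not go below 0.333. At an unadjusted p under 0.05 there were 1005 genes, and 8 passed the adjusted threshold. Coordinates, overlaps and transcripts came from GENCODE M21 (GRCm38), with gene names matched by Ensembl identifier, and promoters from RefSeq (GRCm38.p6), where all 6 genes were found. Protein sequences were not analysed here.

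The 6 genes and all lists were chosen with earlier results of these data known. The genes named are the 6 genes, *Usp21*, pathway genes past the test or the extremes of each list, genes overlapping the 6, the 5 nearest profiles of *Bmal1* and of *Nr1d1*, and others where the text says so; 1 list gene that this rule names is not reported here. Alternatives were pseudocounts of 0.1 and 5, no filter or a mean of at least 5 TPM, upper quartile scaling, no moderation, the CPM values, edgeR 4.0.16 quasi-likelihood tests on the recovered reads, and leaving out each library. Scripts were tested on simulated data.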

Additional observations from a re-analysis of the deposited data

How the results depend on the processing

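The genotypes did not overlap for *Bmal1*, *Clock*, *Nr1d2* and *Rora*, so pseudocounts, filters and leaving out a library could not turn their direction. Upper quartile scaling could have turned it and did not, and the CPM values gave no difference for these genes. *Nr1d1*, whose genotypes overlapped, turned to -0.37 without WT replicate 3. With pseudocounts of 0.1 and 5 the log2 difference was 3.87 and 0.92 for *Bmal1*, 1.77 and 0.57 for *Clock*, and the ratio of *Bmal1* to *Nr1d2* differed by 4.13 and 1.12 between genotypes. *Nr1d2* was at -0.20 with a pseudocount of 5 and at -0.37 with upper quartile scaling. The log2 ratio of *Npas2* to *Clock*, -0.72 in KO minus WT, became 0.44 and -0.44 with 0.1 and 5, so nothing is read from it, *Npas2* being listed at 0 in WT. The count of genes among the 6 higher by at least 2-fold fell to 0 with 5 as the pseudocount, 0 at a mean of at least 5 TPM (which removes *Bmal1* and *Clock*) and 0 in the CPM values (which hold only *Nr1d1*), and the counts without overlap were 1 higher at 5 TPM and 0 higher and 0 lower in CPM. Over all tested genes, 616, 70, 147 and 1881 were higher and 204, 45, 56 and 1253 lower by at least 2-fold with pseudocounts of 0.1 and 5, at 5 TPM and in CPM, against 248 and 105. Upper quartile scaling gave 173 and 137. Genes without overlap numbered 2612 at 5 TPM and 1108 in CPM. Adjusted calls over all genes were 4 without the filter, 0 without moderation, 1 in CPM and 12 with edgeR on recovered reads, against 8. The 1 pathway call became 0 without the filter, 0 without moderation, 0 in CPM and 0 with edgeR. The median of the kinases and ubiquitin ligases was -0.052 in CPM, and that of the relatives 0.29 in CPM and from -0.16 to 0.049 with each library left out.

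Leaving out each library in turn gave 2.02 to 2.47 for *Bmal1*, 1.00 to 1.52 for *Clock*, -0.37 to 1.31 for *Nr1d1*, -0.28 to -0.22 for *Nr1d2* and 0.38 to 0.96 for *Rora*. The ratio of *Bmal1* to *Nr1d2* ranged from 2.30 to 2.69, that of *Npas2* to *Clock* from -0.85 to -0.59 and that of *Nr1d1* to *Nr1d2* from -0.13 to 1.56. The genes among the 6 higher by at least 2-fold numbered 2 to 3, those without overlap 3 to 4 higher and 1 to 2 lower. Over all tested genes, 275 to 546 were higher and 128 to 188 lower by at least 2-fold, 6729 to 7371 did not overlap, and 0 to 0 passed the adjusted threshold, also 0 to 0 of the pathway genes. In such a fit the lone mouse is assumed to vary like the pair. No paired analysis was possible because the genotypes share only replicate number 3.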

Other observations

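The CPM table was set beside the annotation because *Thra* carried the pattern of *Nr1d1* there. Of 1084 genes with at least 20 recovered reads over the 4 libraries, 1023 (94.4%) had an exon that overlaps an exon of a gene on the opposite strand, compared with 16.5% of the 55154 annotated genes of that table. Of those 1023 genes, 839 (82.0%) had such a partner with a higher mean TPM than their own. The part of the strand setting in these values was not tested.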
